A study of Mus musculus with 8 samples.

Results

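The genes described here are 42 mouse genes that copy DNA or commit cells to copying it: the MCM helicase and the proteins that load and start it, the sliding clamp and its loader, the replicative polymerases, the enzymes that finish the lagging strand, the single-strand binding protein RPA, and regulators of the step from G1 to S phase. They were taken by symbol from a table of 52778 features, and all 42 were found and passed the filter on low values, among 15545 genes tested. Their expression was measured by RNA sequencing of ventricular heart tissue from C57BL/6 embryos at embryonic day 11.5, in 4 control (wild-type) libraries and 4 libraries from Atf4(del7/del7) embryos. In the mutants CRISPR/Cas9 removed 7 bases from exon 3 of Atf4, a frameshift labelled as a global knockout, so every cell of the embryo carries it and effects from outside the heart are part of the comparison. The mutant samples are entered as wild type under genotype, so groups were taken from the titles. Per the design text the 4 libraries of a genotype are biological replicates. How many embryos went into a library is not given in the labels.

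DNA replication starts in G1, when the origin recognition complex (ORC), Cdc6 and Cdt1 place the ring-shaped MCM2-7 helicase on DNA. At the start of S phase, Mcm10, Cdc45 and the GINS complex turn it into a moving fork, where the PCNA clamp, put on by replication factor C (RFC), holds the polymerases. E2F transcription factors drive many of these genes once cyclin-dependent kinases release them from the retinoblastoma protein. In the embryonic heart, cardiomyocytes still divide, and growth of the ventricular wall depends on it. ATF4 is a stress-induced transcription factor best known for driving amino acid synthesis and import.

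Values are TPM (a transcript abundance scaled for transcript length and library), which keep no read depth, so the spread between libraries is the only error given. The features of a library sum to between 923473 and 949762 TPM. Atf4 itself was at 105, 121, 115 and 105 TPM in the controls and at 166, 164, 185 and 148 TPM in the mutants, so the transcript level cannot serve as a check of the knockout. Its log2 fold change, mutant minus control, was 0.57 (limma adjusted p of 0.043). Of the 6 genes past an adjusted p of 0.05 in limma, Atf4 was the only 1 higher in mutants. The tissue label was checked against marker genes. All 11 cardiomyocyte markers were abundant, with a summed level of 46210 to 47910 TPM in controls and 45310 to 47880 TPM in mutants. The protocol text names cortical neurons, and of 7 neuronal markers Neurod1 and Snap25 reached at most 0.0408 TPM in any library. Elavl3 was at 0.328 to 0.742 TPM, Stmn2 at 1.06 to 1.76 TPM, Elavl4 at 0.894 to 1.86 TPM, Tubb3 at 7.06 to 11.8 TPM and Gap43 at 26.6 to 32.9 TPM. The summed level of the 7 was 41.3 to 46.2 TPM in controls and 39.3 to 44.1 TPM in mutants. In bulk tissue, a different share of cells in S phase and a different amount of replication mRNA per cell cannot be told apart.

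Promoter sites for E2F are shown first, because E2F factors are known regulators of many of these genes. RefSeq promoter windows (GRCm38.p6, 250 bases before to 50 bases after an annotated start site) were at hand for 34 of the 42 genes. They were searched on both strands for TTTCCCGC, TTTCGCGC, TTTGCCGC and TTTGGCGC, the letters of the E2F consensus. A match stood in a window of 14 of the 34 genes (41.2%), against 512 of 10705 genes tested that have a window (4.78%). Of the 14, 1 representative site is printed for each of 9 genes, 5′ to 3′ on the strand of the gene, with the match in capitals and up to 10 bases on each side.
Mcm5: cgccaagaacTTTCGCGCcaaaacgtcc
Mcm6: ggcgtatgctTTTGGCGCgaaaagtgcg
Orc1: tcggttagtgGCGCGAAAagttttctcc
Cdc6: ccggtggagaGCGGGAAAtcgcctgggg
Cdt1: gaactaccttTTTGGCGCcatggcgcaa
Rfc3: cgtcgcacgcTTTCGCGCtcgcgggaaa
Pola1: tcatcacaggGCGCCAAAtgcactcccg
Lig1: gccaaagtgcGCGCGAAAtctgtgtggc
Uhrf1: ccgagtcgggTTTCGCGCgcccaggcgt

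The Mcm5 site lies at chr8:75109346-75109373 on the plus strand, and its match begins 153 bases before the start site. The Mcm6 site (chr1:128359798-128359825, minus strand) begins 110 bases before the start site and overlaps a further match on the opposite strand, and another match begins 47 bases before the start. The Orc1 site (chr4:108579417-108579444, plus strand) begins 27 bases and the Cdc6 site (chr11:98908003-98908030, plus strand) 138 bases before the start. The Rfc3 site (chr5:151651201-151651228, minus strand) begins 10 bases before the start site. Those of Pola1 (chrX:93632276-93632303, minus strand) and Uhrf1 (chr17:56304118-56304145, plus strand) begin 138 and 185 bases before it. The matches of Cdt1 (chr8:122568037-122568064, plus strand) and Lig1 (chr7:13278842-13278869, plus strand) begin at base 33 and base 27 after the start site. Mcm6 had the most matches, 3, while Mcm3, Mcm5, Mcm7 and Rfc3 had 2 each. The C/EBP-ATF element bound by ATF4, searched as TGATGNAA on both strands, stood in a window of 2 of the 34 genes, Orc2 and Fen1 (5.88%), against 284 of 10705 genes tested (2.65%). Neither of these 2 genes had an E2F match in a window. A match is a description of the sequence and not a shown binding site. The 14 genes with an E2F match had a median log2 fold change of 0.030, the 20 genes without one 0.040.

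None of the 42 genes passed the test for a difference between genotypes (0 of 42 at an adjusted p below 0.05 in limma, with 0.0386% of all genes past it), and none had an unadjusted p below 0.05, a count of 0 against 6.1% of all genes. The mutant and control values of every one of the 42 overlapped, while 3.68% of all genes tested showed no overlap. The log2 fold changes, mutant minus control on the log2(TPM + 1) scale, ran from -0.082 for Rfc3 to 0.13 for Mcm10. In 33 genes the value was above 0 and in 9 below 0 (78.6% above 0, against 48.2% of all genes), with a median of 0.033 against -0.0033 over all genes tested. The 9 were Mcm5, Gins1, Gins2, Gins3, Rfc1, Rfc3, Pold1, Rpa2 and E2f1.

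The 95% intervals of the same fit say how large a difference these data leave room for. Every interval of the 42 genes included 0. For 37 of the 42 (88.1%) the whole interval lay within 0.2 of 0 on the log2 scale, and for all 42 within 0.3, against 41.0% and 64.9% of all genes tested. The 5 genes with wider intervals were Orc1, Orc2, Mcm10, Fen1 and Rpa3. The median residual SD of the 42 genes, the spread between libraries of a genotype, was 0.065 on the log2 scale, against 0.103 over all genes tested. The 42 genes are also more abundant, with a median of 43.1 TPM against 15.8 TPM.

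**Figure D1:**
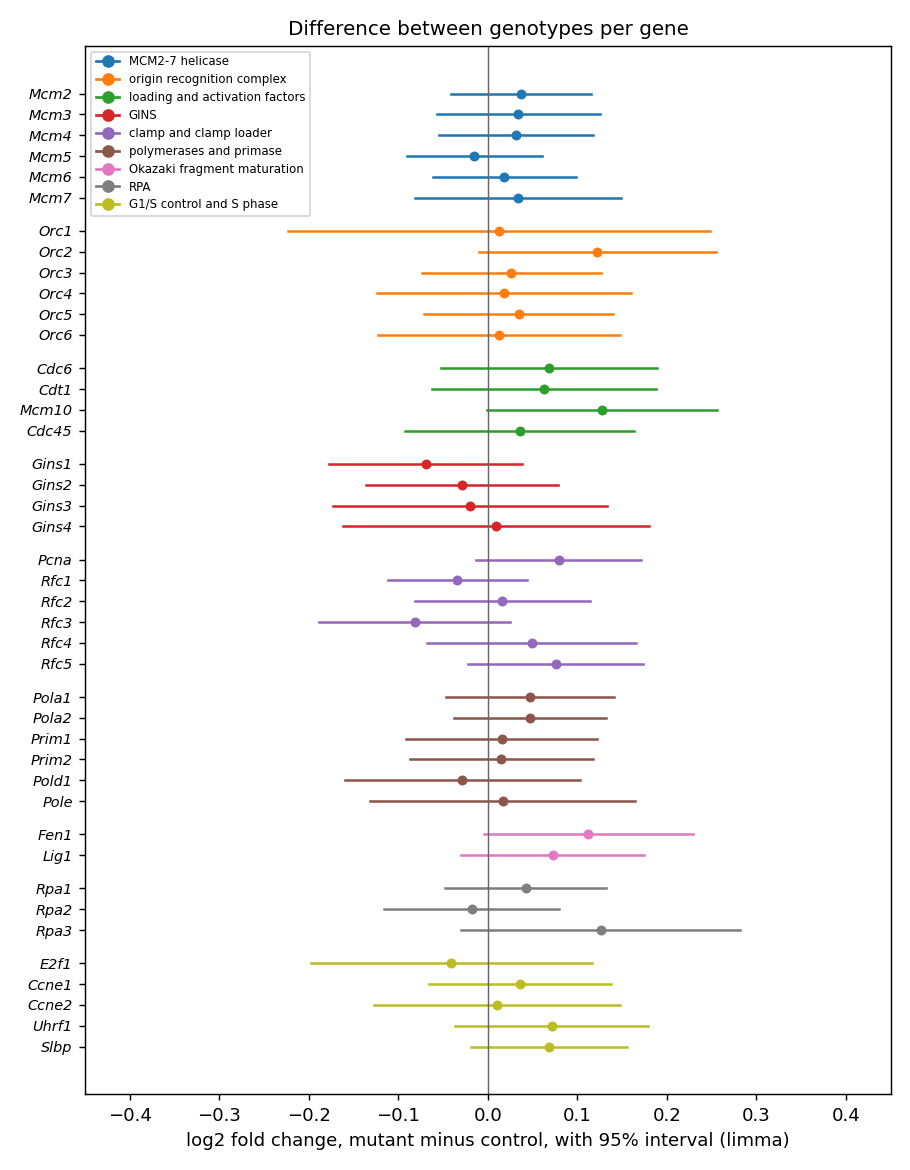
Log2 fold change (mutant minus control, log2(TPM + 1) scale, points) of each of the 42 genes with its 95% interval from limma (lines), coloured by role. Every interval crosses 0, and the points run from -0.082 for Rfc3 to 0.13 for Mcm10.

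The MCM2-7 subunits, the motor of the fork, were among the most abundant of the 42 genes, and their median standard error of 0.037 was the lowest of any role. Mcm7 held 153, 141, 144 and 130 TPM in controls 1 to 4 and 151, 147, 137 and 146 TPM in mutants 1 to 4. Its highest and lowest values both belonged to controls, and its log2 fold change was 0.033 (95% interval -0.082 to 0.15, limma adjusted p of 0.960). The other 5 subunits had log2 fold changes between -0.015 for Mcm5 and 0.037 for Mcm2. Mcm2 was at 115 ± 3.66 TPM in controls and 118 ± 3.33 TPM in mutants (SD, n = 4 each), and Mcm5 at 79.7 ± 1.59 and 78.9 ± 2.39 TPM. As a hexamer holds 1 copy of each subunit, the order of their mRNA levels is of interest. Over the 8 libraries it was Mcm7 (144 TPM), Mcm6 (131), Mcm2 (117), Mcm3 (104), Mcm4 (84.7) and Mcm5 (79.3), and each neighbouring pair kept this order in 8 of 8 libraries. The ranges over libraries overlapped between Mcm7 and Mcm6 and between Mcm4 and Mcm5 and were apart for the other neighbours. The highest subunit stood 1.66 to 1.88 times above the lowest within controls and 1.81 to 1.86 times within mutants.

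The origin recognition complex marks the sites where replication can start. Its subunits were expressed below the helicase, and Orc6 led them. Orc6 held 46.5, 43.5, 41.7 and 46.5 TPM in the controls and 42.9, 41.9, 49.7 and 45.3 TPM in the mutants. The groups overlapped throughout, with mutant 3 the highest of the 8 libraries (log2 fold change 0.013, 95% interval -0.12 to 0.15). Orc5, Orc3, Orc2 and Orc4 averaged 26.1, 24.1, 21.1 and 20.7 TPM over the 8 libraries, and the neighbours Orc2 and Orc4 did not differ beyond their spread, with overlapping ranges. Orc4 was the higher in all 4 controls and in mutant 2, and Orc2 in mutants 1, 3 and 4, an order whose difference between genotypes was not tested. Orc1, the subunit whose supply is cell-cycle regulated, was the least abundant of all 42 genes at 5.43 ± 0.852 TPM in controls and 5.45 ± 0.456 TPM in mutants. It was also the most variable, with controls at 4.46, 5.13, 6.48 and 5.63 TPM. Orc1 shares 3632 bases with Prpf38a on the opposite strand, a gene averaging 52.3 TPM, and the strand setting of the counting is not given in the sources used here. Orc2 had the largest log2 fold change of the complex, 0.12 (95% interval -0.010 to 0.25, unadjusted p of 0.0668, limma adjusted p of 0.841). Its controls ranged from 19.0 to 21.6 TPM and its mutants from 20.2 to 23.3 TPM.

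The factors that load the helicase and start it had positive log2 fold changes in 4 of 4 cases, none past the test. Cdt1, which brings MCM2-7 to the origin, held 45.2, 41.7, 41.2 and 42.3 TPM in the controls and 47.4, 45.3, 45.5 and 40.1 TPM in the mutants. Mutant 4 was the lowest of all 8 libraries, and the other mutants exceeded every control. Its log2 fold change was 0.063 (95% interval -0.062 to 0.19). Mcm10, which acts as the helicase is switched on, had the largest log2 fold change of the 42 genes. It held 18.2, 17.7, 16.3 and 15.7 TPM in the controls and 19.5, 18.4, 18.5 and 18.1 TPM in the mutants. Only control 1 reached into the range of the mutants. Its log2 fold change was 0.13 (95% interval -0.0015 to 0.26, unadjusted p of 0.0523, limma adjusted p of 0.821). Cdc6, the ATPase that works with ORC, was at 15.2 ± 0.518 and 16.0 ± 0.844 TPM, and Cdc45, a part of the active helicase, at 26.6 ± 2.02 and 27.3 ± 0.899 TPM (controls and mutants, SD, n = 4 each).

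The GINS complex, which joins MCM2-7 and Cdc45 in the active helicase, was the role with most values below 0, at 3 of 4 genes. Gins2 held 48.4, 47.7, 46.4 and 47.2 TPM in the controls and 42.9, 46.6, 46.4 and 50.3 TPM in the mutants. Mutant 1 was the lowest and mutant 4 the highest of the 8 libraries, with mutants 2 and 3 at the lower end of the controls (log2 fold change -0.029, 95% interval -0.14 to 0.079). Gins1 had the lowest value of the complex, -0.069 (95% interval -0.18 to 0.038, limma adjusted p of 0.890). Although 1 copy of each of the 4 subunits makes up the complex, their mRNA levels were spread more widely than those of the helicase. Over the 8 libraries Gins2 averaged 47.0, Gins4 39.3, Gins1 27.8 and Gins3 13.3 TPM, in that order in 8 of 8 libraries, and the ranges of Gins2 and Gins4 overlapped.

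Pcna, the sliding clamp that tethers polymerases and many repair enzymes, was the most abundant of the 42 genes. It held 259, 230, 251 and 246 TPM in the controls and 253, 268, 254 and 267 TPM in the mutants. Control 1 lay among the mutants, and the other controls lay below all of them. Its log2 fold change was 0.079 (95% interval -0.013 to 0.17, unadjusted p of 0.0840, limma adjusted p of 0.841). The processed pseudogene Pcna-ps2 is listed at 19.7 ± 1.67 TPM in controls and 19.4 ± 1.30 TPM in mutants, and how reads shared by near-identical copies were assigned is not given. Among the RFC subunits, which open and close the clamp, Rfc3 had the lowest log2 fold change of the 42 genes. Rfc3 held 47.5, 46.2, 42.9 and 44.0 TPM in the controls and 45.6, 41.9, 41.0 and 41.9 TPM in the mutants. Here mutant 1 lay within the controls and the other mutants below them. The log2 fold change was -0.082 (95% interval -0.19 to 0.025, unadjusted p of 0.118, limma adjusted p of 0.858). The other 4 RFC genes had values between -0.034 for Rfc1 and 0.076 for Rfc5. In level, Rfc2 stood apart at 81.3 TPM over the 8 libraries. Rfc3, Rfc1, Rfc5 and Rfc4 averaged 43.9, 43.9, 43.4 and 42.3 TPM, and no neighbouring pair of these kept its order in more than 5 of 8 libraries.

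The polymerase and primase genes lay close to 0. Prim1, the catalytic subunit of primase that starts each new strand with RNA, held 45.3, 41.9, 42.7 and 40.4 TPM in the controls and 44.5, 41.0, 44.8 and 41.8 TPM in the mutants. The groups covered nearly the same range, with a log2 fold change of 0.015 (95% interval -0.091 to 0.12). Pola1, Pola2, Prim2, Pold1 and Pole, for subunits of the polymerase α-primase complex and the catalytic subunits of polymerases δ and ε, had log2 fold changes from -0.028 for Pold1 to 0.047 for Pola1. Within the polymerase α-primase complex, Prim1 (42.8 TPM) and Pola2 (38.2 TPM) were more abundant than Prim2 (21.1 TPM) and Pola1 (19.5 TPM) in 8 of 8 libraries. Pola1, the catalytic subunit, is the only X-linked gene of the 42. Xist, the RNA of the inactive X chromosome, reached at most 0.110 TPM in any library. The Y-linked gene Ddx3y was at 28.1 to 33.3 TPM in the controls and 26.4 to 35.95 TPM in the mutants.

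The enzymes that join lagging-strand fragments had the highest median of any role, 0.092 over 2 genes. Lig1, the ligase that seals the nicks, held 76.4, 72.4, 66.4 and 72.3 TPM in the controls and 78.2, 76.7, 73.9 and 73.4 TPM in the mutants. Again only control 1 reached into the mutant range (log2 fold change 0.072, 95% interval -0.030 to 0.17, limma adjusted p of 0.867). Without control replicate 3 the value was 0.036. Fen1, the nuclease that trims the flaps, was at 41.98 ± 2.45 TPM in controls and 45.5 ± 2.14 TPM in mutants, a log2 fold change of 0.11 (95% interval -0.0042 to 0.23, unadjusted p of 0.0572, limma adjusted p of 0.823). Fen1 shares 192 bases with Tmem258 on the opposite strand, which averages 172 TPM.

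RPA coats the exposed single strands. Rpa1, its largest subunit, held 99.3, 93.1, 93.0 and 91.1 TPM in the controls and 99.6, 94.9, 92.8 and 101 TPM in the mutants. Mutants 1 and 4 were just above the highest control and the others within the control range. Its log2 fold change was 0.042 (95% interval -0.048 to 0.13). Rpa3, the smallest subunit, had a log2 fold change of 0.13 (95% interval -0.030 to 0.28). Its mutants split between 52.1 and 52.3 TPM in replicates 1 and 3 and 62.5 and 60.6 TPM in replicates 2 and 4, against 47.6 to 54.2 TPM in the controls. Rpa2 was at 49.96 ± 2.57 and 49.3 ± 1.25 TPM.

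Among the regulators of the G1/S step and genes of S phase, Uhrf1, which guides copying of DNA methylation onto new strands, was the most abundant. It held 103, 93.7, 89.9 and 95.2 TPM in the controls and 107, 97.6, 100 and 96.3 TPM in the mutants. Control 1 lay among the mutants and the other controls below them (log2 fold change 0.071, 95% interval -0.037 to 0.18, limma adjusted p of 0.889). Slbp, which binds the stem-loop of histone mRNA, was at 61.0 ± 2.67 TPM in controls and 64.0 ± 1.31 TPM in mutants (log2 fold change 0.068). The E-type cyclins, which activate Cdk2 at the end of G1, had values of 0.036 for Ccne1 and 0.010 for Ccne2. E2f1, a member of the E2F family, was at 24.3 ± 1.53 and 23.7 ± 2.13 TPM, a log2 fold change of -0.041 (95% interval -0.20 to 0.12, limma adjusted p of 0.962).

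**Figure D2:**
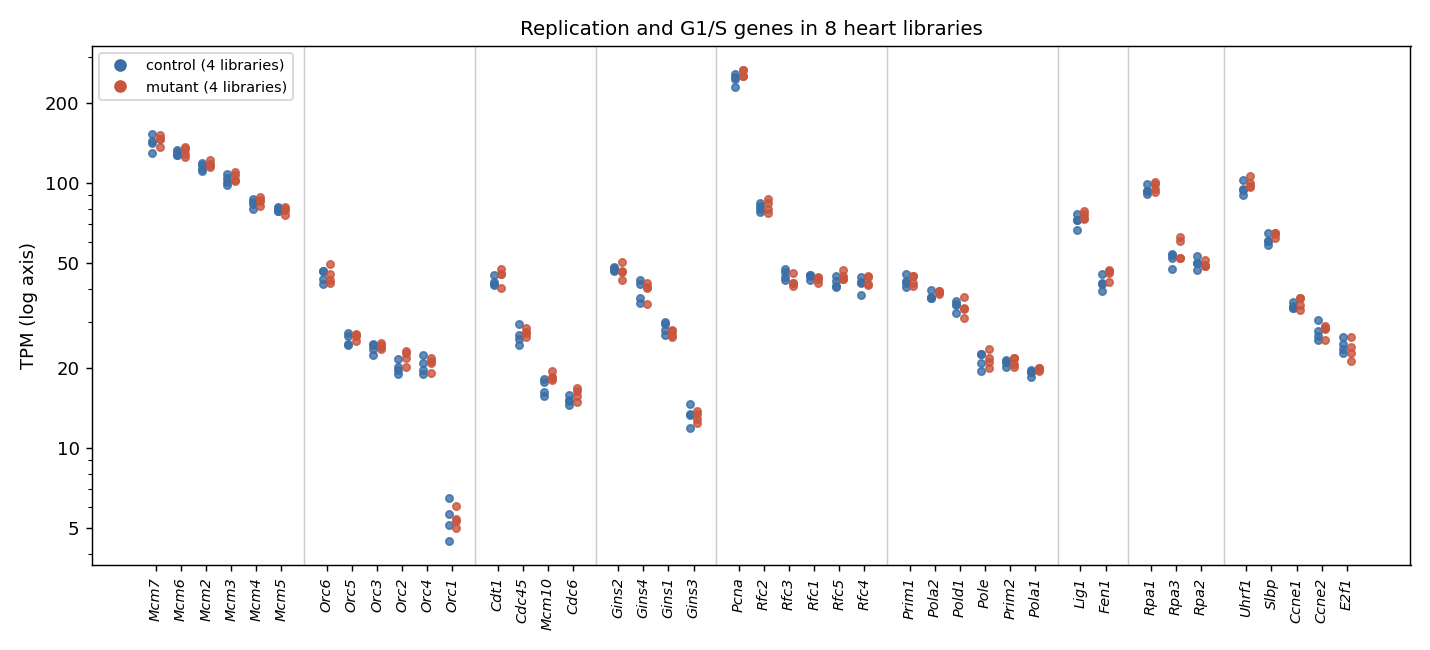
TPM (log axis) of each gene in the 4 control (blue) and 4 mutant (red) libraries, 1 point per library, grouped by role and ordered by mean level within a role. Levels run from 5.44 TPM for Orc1 to 254 TPM for Pcna, and the colours overlap in every gene.

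As a set, the 42 genes differed less between genotypes than 1 control differed from the others. The mean log2(TPM + 1) was 5.464, 5.385, 5.383 and 5.388 in controls 1 to 4 and 5.462, 5.436, 5.412 and 5.429 in mutants 1 to 4. Controls 2, 3 and 4 lay together below every mutant, and control 1 lay level with mutant 1, the highest mutant, so the groups overlapped. The means were 5.405 ± 0.0392 for controls and 5.435 ± 0.0207 for mutants (SD, n = 4 each), a difference of 0.030. No test was made of this mean, since the genes were chosen with earlier results known.

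The position of control 1 came from most of the genes rather than a few. It was the highest control in 33 of the 42 genes and lay above the control mean in 39 of them (92.9%), against 60.3% of all genes tested. Orc1, Fen1 and Rpa3 were the exceptions, and for Orc1 and Rpa3 control 1 was the lowest of all 8 libraries. Among the mutants, replicate 1 was the highest in 21 genes. After median-of-ratios scaling, which evens out differences common to all genes, the set mean was 5.439 in control 1 against 5.377 to 5.401 in the other controls and 5.405 to 5.453 in the mutants, so control 1 then lay within the mutant range. Without control replicate 1 the median log2 fold change of the 42 genes was 0.054, 34 of the 42 were above 0, and 5 had an unadjusted p below 0.05 (Orc2, Mcm10, Pcna, Uhrf1 and Slbp), against 5.73% of all genes. In 8 genes every mutant then exceeded every control (Mcm10, Pcna, Rfc5, Pola1, Pola2, Lig1, Uhrf1 and Slbp), against 3.7% of all genes. None passed the adjusted threshold, a count of 0 in limma. Leaving out any other library gave a median between 0.021 (without mutant replicate 1) and 0.046 (without mutant replicate 3) and 27 to 33 genes above 0. It gave 0 to 2 genes with an unadjusted p below 0.05, against 5.17% to 6.67% of all genes. In 0 to 2 genes every mutant then lay above every control, against 2.44% to 3.53% of all genes, and in 0 to 1 below. Control 1 was singled out after its values were seen.

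Levels of cell type markers also varied between the libraries. The mean of 12 erythroid genes, from another dividing cell type in this tissue, was 6.16 in control 1 against 6.51 to 6.87 in the other controls and 6.12 to 6.57 in the mutants. Their summed level was 4693 to 8000 TPM in controls and 4383 to 6101 TPM in mutants, and no erythroid marker was at 0. The mean of 8 macrophage genes was highest in control 1, at 1.92, with 1.26 to 1.83 in the other controls and 0.842 to 1.42 in the mutants. These summed to 12.2 to 24.8 TPM in controls and 6.95 to 14.6 TPM in mutants. The mean of 8 cushion mesenchyme genes was also highest in control 1, at 5.40, with 5.11 to 5.28 in the other controls and 5.19 to 5.27 in the mutants. These summed to 536 to 635 TPM in controls and 518 to 608 TPM in mutants. For 10 endocardial and endothelial genes the mean was 6.203 in control 1, 6.206 to 6.347 in the other controls and 6.161 to 6.314 in the mutants. For 6 epicardial genes it was 5.26 in control 1, 5.135 to 5.28 in the other controls and 5.067 to 5.231 in the mutants. The mean of 11 cardiomyocyte genes stayed between 10.96 and 11.07 in all 8 libraries. The part of cell composition in the level of the 42 genes was not tested.

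**Figure D3:**
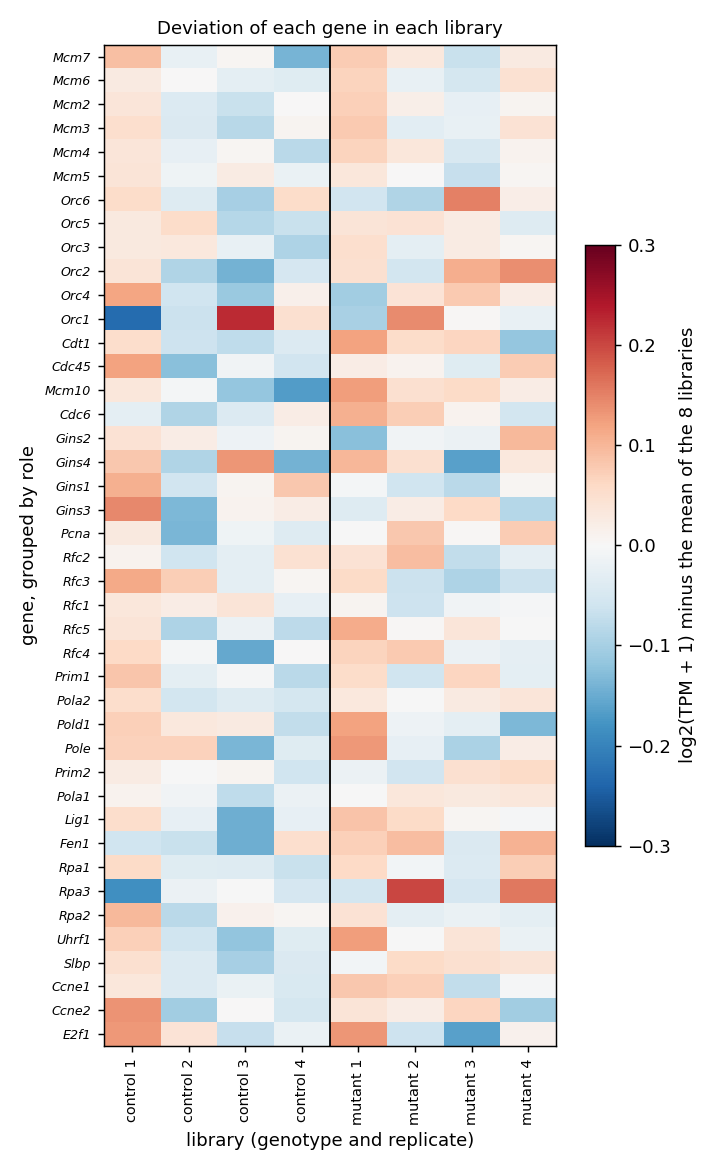
Deviation of each gene (rows, grouped by role) in each library (columns) from its mean over the 8 libraries, on the log2(TPM + 1) scale, red above and blue below. Control 1 is above the control mean in 39 of the 42 genes, and Orc1 and Rpa3 are the rows that go against it most.

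Other genes of the pathway were read from lists written for this comparison. Over all genes tested, 6.1% had an unadjusted p below 0.05 in limma and 48.2% lay above 0. Of 36 further fork and origin factors (polymerase accessory subunits, the Dbf4-Cdc7 kinase, chromatin assembly and checkpoint factors), 0 passed the adjusted threshold in limma, and 1 had an unadjusted p below 0.05. This was Pold2, the second subunit of polymerase δ, at 59.7 ± 3.39 TPM in controls and 65.3 ± 3.46 TPM in mutants (SD, n = 4 each, log2 fold change 0.13, unadjusted p of 0.0344, limma adjusted p of 0.809). The median of the list was 0.024, with 27 genes above 0 and 9 below. Of 32 cyclins, kinases, inhibitors and RB-E2F genes, 30 were tested, with a median of 0.015, 18 above 0 and 12 below. Again 0 passed in limma and 1 had an unadjusted p below 0.05, Rbl1, the p107 relative of the retinoblastoma protein, at 0.11 on the log2 scale (limma, unadjusted p of 0.0427 and adjusted p of 0.809).

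Genes of mitosis lay above 0 in 27 of 27 cases with a median of 0.051, against 48.2% and -0.0033 over all genes tested. None passed in limma (0 of 27), and 2 had an unadjusted p below 0.05, against 6.1% of all genes. The smallest was that of the mitotic kinase Aurka (log2 fold change 0.12, unadjusted p of 0.0141, limma adjusted p of 0.780). Their list mean was again highest among controls in replicate 1, at 5.96, with 5.82 to 5.92 in the others and 5.93 to 5.97 in the mutants. The replication-dependent histone genes, whose mRNA Slbp binds and which usually lack a poly(A) tail, were low. Of 30 listed, 11 passed the filter, their median level was 1.89 TPM, and 0 passed the threshold in limma. H2bc4 had the smallest unadjusted p of them, 0.0162 (log2 fold change -0.23, limma adjusted p of 0.780). It was the only one of the 11 below 0.05, against 6.1% of all genes. E2F letters stood in windows of 9 of 29 fork and origin factors (31.0%) and 1 of 22 mitosis genes (4.55%).

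**Figure D4:**
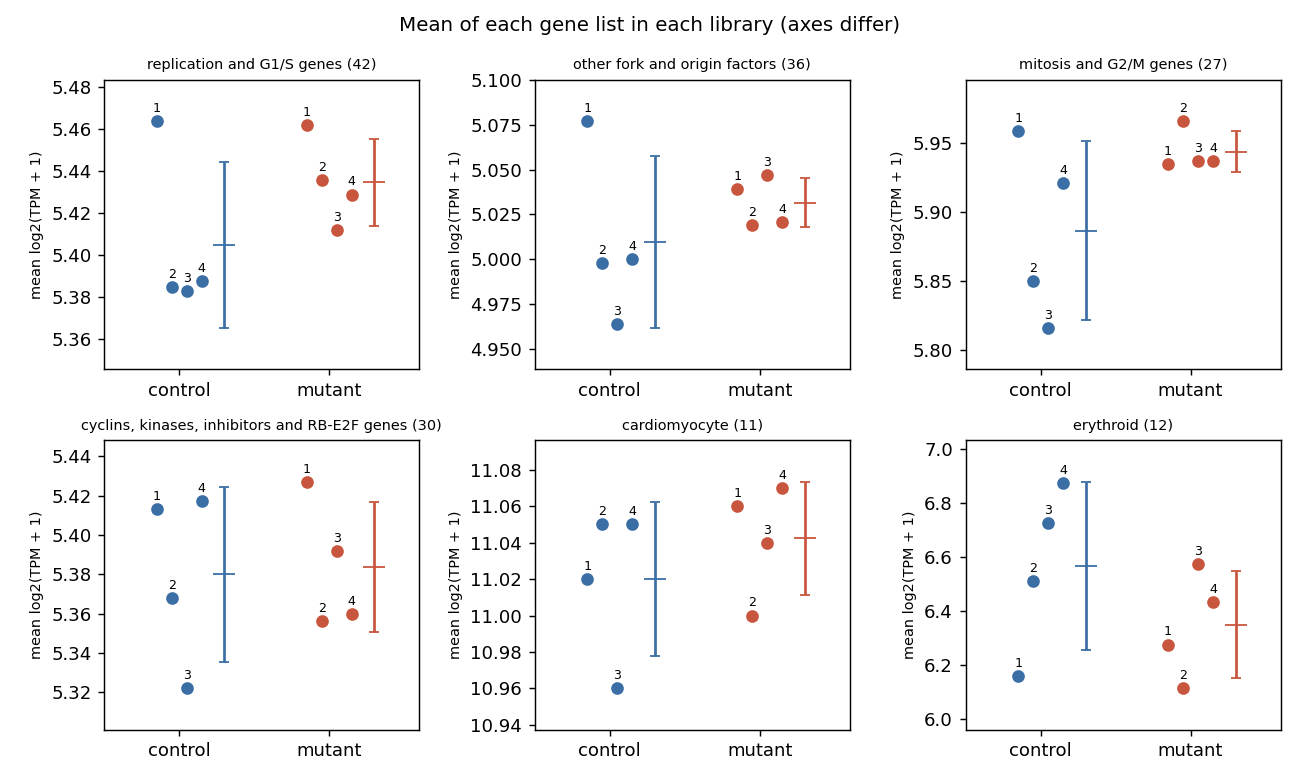
Mean log2(TPM + 1) of 6 gene lists in each library (points, numbered by replicate, controls blue and mutants red) with the group mean and SD (bars, n = 4). Axes differ between panels and do not start at 0. For the 42 genes control 1 (5.464) sits level with mutant 1 and controls 2 to 4 below all mutants, while for erythroid genes control 1 (6.16) is the lowest control.

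In the genome the 42 genes are spread over 13 chromosomes, with 8 on chromosome 5 and 6 on chromosome 8. A divergent protein-coding neighbour starting within 1000 bases was found for 5 of them (11.9%), against 10.4% of the protein-coding genes tested. Mcm4 and Prkdc, the gene of the DNA-dependent protein kinase, start 44 bases apart, Pcna and Cds2 158 bases apart, and Rpa3 and Umad1 147 bases apart. Orc6 and Vps35 start 115 bases apart, and Pole and Pxmp2 97 bases apart. The 5 partners had log2 fold changes of 0.025 for Prkdc, 0.028 for Cds2, -0.084 for Umad1, 0.079 for Vps35 and -0.037 for Pxmp2. None was past the threshold (limma adjusted p of at least 0.841). Of the 42 genes, 19 share bases with another listed feature, and 15 of these with one that averages at least 1 TPM. The microRNA Mir25, one of 3 inside Mcm7, was listed at 5.03 TPM on average, a value that can hold reads of its host.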

How the data were processed

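RNA sequencing of 8 embryonic heart libraries was analysed from 1 table of TPM deposited by the authors. The submitters' processing notes name Trim Galore 0.6.7, HISAT2 2.2.1, StringTie 2.2.1 and featureCounts with GRCm38, without roles; annotation and strand setting are not given in the sources used here. Per the labels, the design text names a stranded poly(A) kit and the sample protocol ribosomal RNA depletion. Start and end were identical to RefSeq GRCm38.p6 for 49590 of 49593 features matched by symbol and chromosome.

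Genes reaching 1 TPM in 4 or more libraries were kept. Values were analysed as log2(TPM + 1), which understates changes of low genes, with limma 3.58.1 (R 4.3.3): empirical Bayes with a variance trend, no covariate, two-sided, Benjamini-Hochberg adjustment over 15545 genes at 0.05. The fit was tested on simulated data. TPM keep no depth, so no counting interval is given. The genes, related lists and markers were chosen with earlier results of these data known. All 42 genes may be named. Values per library are given for the extremes of fold change and the most abundant gene of each role; Orc1, Rpa3 and any other detail were singled out after their values were seen. In each related list the gene with the smallest p is named. Protein sequences were not used here. Python 3.11.15 with pandas 2.3.3 and matplotlib 3.10.9 made the summaries and plots.

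The settings changed 1 at a time were the pseudocount (0.1), the filter (none, or 5 TPM), the scaling (median of ratios, quantiles, or TPM summed without mitochondrially encoded and haemoglobin genes), the variance model (no trend, library weights), a replicate block, and the libraries used (each left out in turn). The main fit used no pairing by replicate number.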

Additional observations from a re-analysis of the deposited data

Results flagged for a closer look

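In 86 groups of 4 libraries (each of the 42 genes and the set mean, in each genotype), a library was sought whose gap to its nearest neighbour takes up most of the range of its group. This was found 4 times, and chance alone flags about 1 in 20 groups, here 4.3. The set mean was high in control replicate 1, at 5.464 against 5.383 to 5.388 in the other controls. Pola2 was high in the same library, at 39.6 TPM against 36.7 to 37.1 TPM, and its log2 fold change of 0.047 was 0.072 without it. Pola1 was low in mutant replicate 1, which held 19.5 TPM where the other mutants held 19.96 to 20.03 TPM, and its log2 fold change of 0.047 was 0.055 without it. Rpa2 stood out in the same mutant library, where it held 51.1 TPM and the other mutants 48.6 to 48.9 TPM, and its log2 fold change of -0.018 was -0.036 without it.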

How the results depend on the processing

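The count of genes past the adjusted threshold was 0 of 42 in all 17 alternatives, and the smallest adjusted p of any of the 42 genes in them was 0.682. Between 27 and 34 genes lay above 0, the median log2 fold change ranged from 0.021 to 0.054, and the difference in set mean, computed in the 12 alternatives that change the values or the libraries, from 0.021 to 0.049, with the extremes among the fits that left out 1 library. With a replicate block the median was 0.033 and 1 gene (Fen1) had an unadjusted p below 0.05 in limma, against 0 in the main fit. Quantile normalization gave 2 such genes, Mcm10 and Rfc3. No filter, median-of-ratios scaling and the rescaled TPM gave 1 each, Mcm10. In the main fit 6.1% of all genes tested lay below 0.05. Same-numbered libraries had correlations of deviations between -0.082 and 0.035, and the other pairs between -0.054 and 0.057. These values show no sign of pairing by number but cannot exclude it. Over all genes the number past the threshold was 6 as reported and 0 with no filter, no variance trend or the block, and 0 to 3 with 1 library left out. With weights per library, Pole changed sign, to -0.0087.

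Leaving out 1 library changed the sign of 19 genes, all with an adjusted p of at least 0.834 in every alternative. Their lowest and highest log2 fold changes with 1 library left out were -0.023 and 0.057 for Ccne2, -0.00018 and 0.082 for Cdc45, -0.091 and 0.0068 for E2f1, -0.066 and 0.0086 for Gins2, -0.069 and 0.024 for Gins3, -0.037 and 0.065 for Gins4, -0.029 and 0.0054 for Mcm5. They were -0.00078 and 0.0396 for Mcm6, -0.0077 and 0.069 for Mcm7, -0.062 and 0.089 for Orc1, -0.00018 and 0.042 for Orc3, -0.016 and 0.061 for Orc4, -0.035 and 0.045 for Orc6. They were -0.074 and 0.012 for Pold1, -0.026 and 0.051 for Pole, -0.0088 and 0.045 for Prim1, -0.0029 and 0.036 for Prim2, -0.012 and 0.044 for Rfc2, -0.048 and 0.011 for Rpa2. Of the 23 genes that kept their sign, 17 moved by over 1.5 times in at least 1 such fit, among them Lig1 (0.036 without control replicate 3 and 0.102 without control replicate 1), Cdt1 (0.033 without mutant replicate 1 and 0.112 without mutant replicate 4) and Pcna (0.047 without control replicate 2 and 0.102 without control replicate 1). TPM keep no depth, so sampling noise cannot be set apart from other spread.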
